A study of Mus musculus with 4 samples.

Results

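The genes described here are the amino acid transporters of mouse skeletal stem cells embedded in 3D collagen, compared between cells with and without Mmp14. They were chosen by name: every gene whose symbol begins with Slc1a, Slc3a, Slc6a, Slc7a, Slc36a, Slc38a or Slc43a and ends in digits, read at a probe set that carries exactly 1 gene symbol. That gave 59 genes of the 22180 measured. Where a gene had more than 1 such probe set, the one with the highest mean over the 4 arrays stood for it, so that mean is a value used in the choice. The family was picked with earlier results of the same comparison known, so counts over it are a description. The neutral amino acid carriers Slc6a20a and Slc6a20b fall outside the pattern because their symbols end in a letter, and Slc6a9 because its probe set also carries Ccdc24.

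Cells came from mice of 4 to 6 weeks. The wild-type group carried Mmp14+/+ and the knockout group Mmp14-/-, with 2 arrays each, numbered 1 and 2, and both groups spent 48 h in collagen gel. Mmp14 encodes a membrane-anchored protease that cleaves collagen. The labels leave unstated which part of Mmp14 was removed, which strains were used, how the stem cells were isolated, or whether the replicates of a group are separate animals or cultures. The p-values therefore measure only the spread between the arrays, and that spread may be technical. In bulk RNA, fewer cells of a type and less RNA per cell cannot be told apart.

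Amino acids cross membranes on carriers of several unrelated families. Sodium-coupled carriers build up an intracellular pool, and exchangers then trade part of that pool for essential amino acids outside. Several exchangers are pairs of a light chain, which carries the substrate, and a heavy chain, which brings it to the cell surface. Bone-forming cells draw on this supply for the proline- and glycine-rich chains of collagen and use glutamine as a fuel, and transporters of glutamine, proline and leucine are known to matter in them.

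Mmp14 was at 8.77 and 8.83 log2 on the wild-type arrays and at 5.77 and 5.84 on the knockout arrays, a difference of −2.99. Over the 12708 genes tested, arrays of a group correlated at 0.992 in wild type and 0.994 in knockout, and arrays of different groups at 0.970 to 0.975. Of 17 measured markers of skeletal stem and stromal cells, 16 were above the line for dim genes (2.34 log2, the median of all probe set means) and Gli1 was below it. The stromal genes Prrx1, Pdgfrb and Col1a1 were bright on every array, with lowest values of 10.1, 9.35 and 11.4 log2, while Cd200, a surface marker of skeletal stem cells, read only 2.72 and 2.96 in wild type. Of the 16, 37.5% were called, beside 11.3% of all genes: Cxcl12 (1.81), Pdgfra (1.77), Cd200 (1.46) and Nt5e (1.10) rose, and Lepr (−2.26) and Sp7 (−3.08), a transcription factor of osteoblast commitment, fell. The part of such shifts in the transporter results was not tested. Of 67 measured markers of other cell types, 42 lay below the dim line, and of the 25 tested, Pax7, Mmp9 and Mcam rose and Rgs5 and Ncam1 fell, 20% in all. Xist and the Y-linked Eif2s3y were above the dim line on every array, with differences of 0.73 and −0.69 log2 (limma adjusted p = 0.0155 and 0.0474), and the part of this shift in the results was not tested. The call of Eif2s3y was lost without wild type replicate 1 (adjusted p = 0.107), Mmp14 knockout replicate 1 (0.176) or 2 (0.0648), or a dim-gene filter (0.0676), and Xist lost its own without Mmp14 knockout replicate 1 (0.0801).

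Of the 59 transporter genes, 31 had a mean at or above the dim line and were tested, and 28 did not. In knockout cells 3 rose (Slc7a8, Slc6a6 and Slc7a2), 5 fell (Slc7a7, Slc38a1, Slc1a2, Slc1a4 and Slc7a5) and 23 were not called at an adjusted p below 0.05. This is 25.8% of the transporters tested, where 11.3% of all genes tested were called, 6.2% higher and 5.12% lower. At an adjusted p below 0.01, 0 transporters were called, beside 3.61% of all genes. An unadjusted p below 0.05 was found for 12 of the 31, beside 27.5% of all genes. The median difference over the 31 genes was −0.0031 log2, beside −0.0041 over all genes tested. The differences ran from −1.44 log2 for Slc7a7 to 1.26 for Slc7a8, and 15 were above 0 and 16 below. The groups did not overlap in 19 of the 31 transporters, beside 57.8% of all genes tested. Of these, 11 were higher in knockout, beside 28% of all genes, and 8 lower, beside 29.8%. The calls depended on which probe sets entered the fit, and the reason was not tested. When every probe set of the table entered 1 limma fit, 0 of the 31 were called and 12 had an unadjusted p below 0.05. The adjusted p of the 8 genes named above lay between 0.107 and 0.218. Of all probe sets in that fit, 13% had an unadjusted p below 0.05 and 0.527% were called. These shares include probe sets below the dim line, so they are no background for the 31, which all lay at or above it.

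**Figure D1:**
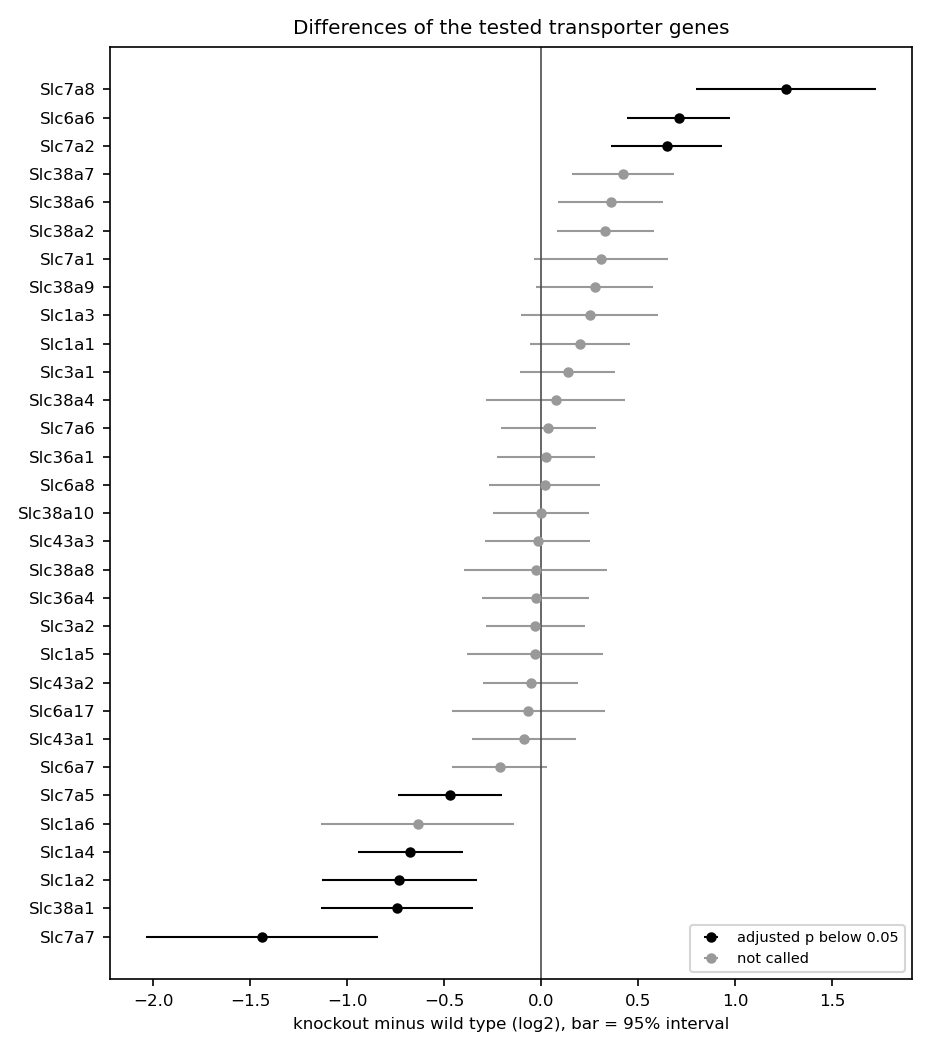
Difference between knockout and wild type (horizontal axis, log2) for each of the 31 tested transporter genes, with the 95% interval of the limma fit (2 arrays per group). Black points were called and grey points were not. Slc7a8 at 1.26 and Slc7a7 at −1.44 stand at the ends, and 17 of the 23 genes not called lie within 0.25 of 0.

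Light chains of the paired exchangers showed the widest spread. Slc7a7, whose product exchanges cationic amino acids for neutral ones, read 6.25 and 6.19 log2 on the wild-type arrays and 4.39 and 5.16 on the knockout arrays. Both knockout arrays lay below both wild-type arrays, but the knockout arrays also stood well apart from each other. Slc7a7 fell by 1.44 log2 in knockout (SE 0.243, n = 2 arrays per group, adjusted p = 0.0177 by limma), which is 2.71-fold lower. Its call was lost without wild type replicate 1 (adjusted p = 0.0592) or wild type replicate 2 (0.0593).

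Slc7a8, a light chain that exchanges small and large neutral amino acids, moved the other way. Its values were 5.59 and 5.54 log2 in wild type, against 7.10 and 6.54 in knockout, with no overlap. Slc7a8 rose by 1.26 log2 (SE 0.189, n = 2 arrays per group, adjusted p = 0.0125 by limma), or 2.39-fold, and kept its call on leaving out any 1 array, at differences of 0.98 to 1.54. Knockout replicate 1 had the lowest value of Slc7a7 and the highest value of Slc7a8.

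Slc7a5, the light chain of the main leucine exchanger of growing cells, fell by less. It read 7.63 and 7.56 log2 in wild type, against 7.05 and 7.20 in knockout, a difference of −0.47 (SE 0.109, n = 2 arrays per group, adjusted p = 0.0468 by limma). The groups did not overlap, but no fit with 1 array left out called it (adjusted p = 0.097 to 0.242), without a filter on dim genes (0.0757) and after quantile normalization (0.0525). Slc7a6, which like Slc7a7 exchanges cationic for neutral amino acids, was at 6.84 and 6.89 in wild type, against 6.89 and 6.92 in knockout, a difference of 0.04 with a 95% interval of −0.21 to 0.28.

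The heavy chain that serves all of these light chains, Slc3a2, was not called. It read 7.97 and 7.87 log2 in wild type, against 7.91 and 7.86 in knockout, so the groups overlapped. The difference was −0.03, with a 95% interval of −0.29 to 0.23 that leaves out a change of the size seen in Slc7a7 or Slc7a8. Slc3a1, the heavy chain of the kidney and gut cystine exchanger, lay just above the dim line, at 2.33 and 2.37 in wild type, against 2.51 and 2.47 in knockout. Slc7a11, the cystine and glutamate exchanger light chain, was below it on every array, between 1.48 and 1.61 log2, and a second probe set of the gene read 1.13 to 1.24.

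**Figure D2:**
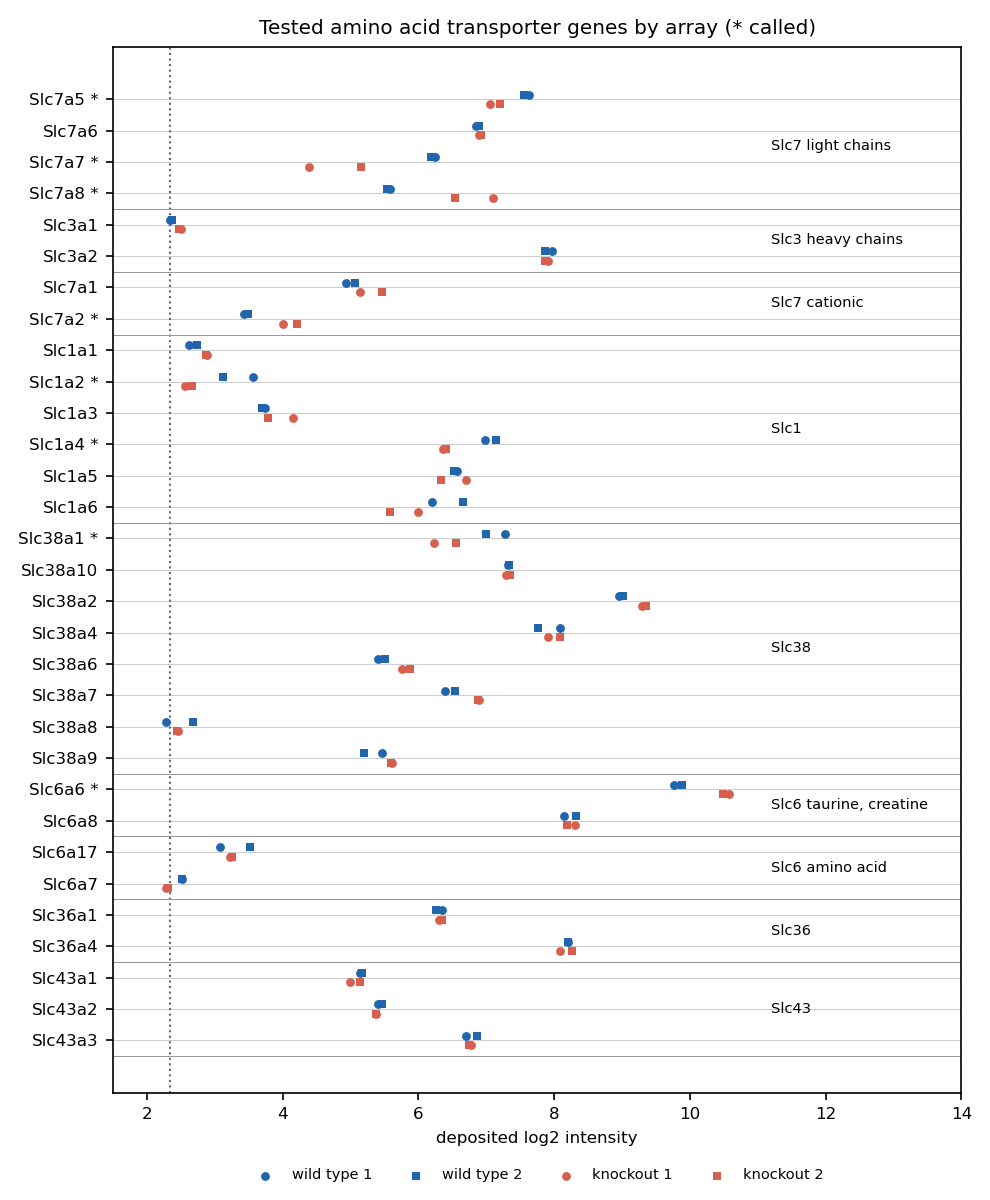
Deposited log2 intensity (horizontal axis) of the 31 tested transporter genes on each array, grouped by family, with wild type in blue, knockout in red, replicate 1 as circles, replicate 2 as squares, and called genes starred. The dotted line marks 2.34 log2, the line for dim genes, and levels of different genes are not comparable because each probe set has its own brightness. In Slc7a7 and Slc7a8 the groups stand apart in opposite directions, and in Slc3a2 they lie on top of each other.

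Slc7a7 and Slc7a8 lie on either side of Mmp14 on chromosome 14. In the RefSeq gene order of GRCm38.p6, taken over genes measured here, 1 gene (Mrpl52) stands between Mmp14 and Slc7a7, and 12 stand between Mmp14 and Slc7a8. Mrpl52, a mitochondrial ribosomal protein gene, had a difference of −0.16 (limma adjusted p = 0.435), and Lrp10, the next gene on the other side of Mmp14, one of −0.31 (0.129). Neither adjacent gene was called. In both the knockout arrays lay below the wild-type arrays, as they did in 29.8% of all genes tested. The 95% interval of Lrp10 ran from −0.57 to −0.04, and 27.5% of all genes tested had an unadjusted limma p below 0.05. Oxa1l, the next measured gene beyond Slc7a7, had a difference of 0.0057.

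Within 25 measured genes on each side of Mmp14, 27 were tested, 2 rose and 4 fell. This is 22.2% called, beside 11.3% of all genes. The count includes Slc7a7 and Slc7a8, already known to be called, so the share is no test of the region. Between these 2 transporters, 9 genes other than Mmp14 were tested and 1, Cdh24, was called. Besides the 2 transporters, the called genes were Trav9d-3 (−1.67), Cdh24 (−0.54), Efs (−0.65) and Cmtm5 (1.61), which were named after their values were seen. Trav9d-3 is a T cell receptor segment with near-identical copies, so its value is uncertain. Cdh24 was not called in any fit that left out 1 array (adjusted p = 0.0664 to 0.203) or without a filter on dim genes (0.0756). Efs lost its call without wild type replicate 2 (0.103), Mmp14 knockout replicate 1 (0.148) or 2 (0.115), without that filter (0.0703) and after quantile normalization (0.0543). Because every knockout array carries the altered Mmp14 locus and no wild-type array does, an effect of the altered chromosome region on Slc7a7 and Slc7a8 and a response of the cells to loss of Mmp14 cannot be told apart.

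**Figure D3:**
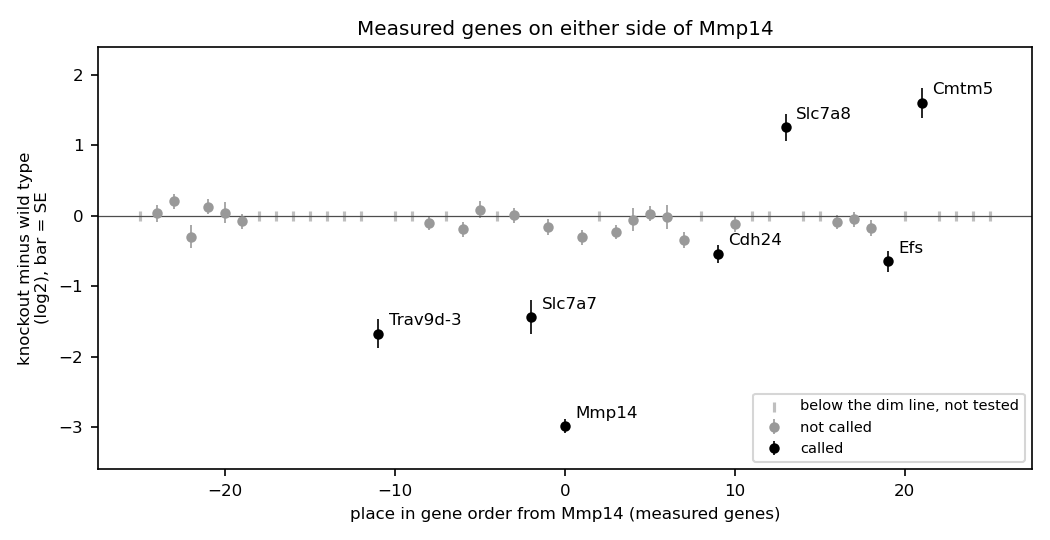
Difference between knockout and wild type (vertical axis, log2, bars show the SE, 2 arrays per group) for measured genes in chromosome order around Mmp14, with the horizontal axis counting measured genes from Mmp14. Black points were called, grey points were not, and grey ticks are genes below the dim line. Slc7a7 at −1.44 and Slc7a8 at 1.26 lie on opposite sides of 0, and the genes next to Mmp14, Mrpl52 at −0.16 and Lrp10 at −0.31, lie below it and were not called.

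Slc7a7 is also known from macrophages. Of 12 macrophage and leukocyte markers, 7 were below the dim line, among them Ptprc, which encodes the leukocyte surface protein CD45, at 1.51 to 1.86 log2. The summed linear intensity of the 12 was 78.3 to 88.5 in wild type and 71.9 to 79.2 in knockout, and 0 of the 5 tested were called. The lysozyme gene Lyz2 had the lowest difference of the 5, −0.50 (limma adjusted p = 0.159). The highest was 0.0079 and the median −0.14. The part of such cells in the fall of Slc7a7 was not tested.

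Promoter windows from RefSeq (GRCm38.p6, from 250 bases before to 50 after a transcript start) were found for 42 of the 59 genes, and for 4 of the 8 called ones, Slc7a7, Slc7a8, Slc1a4 and Slc1a2. They were searched on both strands for TGATGNAA, the letters bound by the amino acid response factor ATF4 with C/EBP partners, for the E-box CACGTG and for the TCF/LEF letters CTTTGAT. These letters occur in 3.97%, 7.15% and 3.73% of all 32851 windows. Slc7a7 and Slc1a4, which both fell, hold TGATGNAA, as do Slc6a21 and Slc7a11, which were too dim to test. Slc1a2 holds CTTTGAT, as do Slc38a9, Slc38a10 and Slc7a1, which were not called, and Slc6a16, which was too dim. Of the 61 windows of transporter genes, 8.2% hold TGATGNAA, 14.8% CACGTG and 8.2% CTTTGAT, and a gene with several starts, such as Slc7a7 with 5, has more windows to match in. None of the 4 called genes with a window holds CACGTG, and the window of Slc7a8 holds none of the 3. The upstream stretches of the pair that flanks Mmp14 are shown first, for Slc7a7 only that of its outermost start. Then come the matches at the start sites. Each is on its gene's strand, 5′ to 3′, with matched letters in capitals.
Slc7a7, chr14:54417945-54418194, minus strand: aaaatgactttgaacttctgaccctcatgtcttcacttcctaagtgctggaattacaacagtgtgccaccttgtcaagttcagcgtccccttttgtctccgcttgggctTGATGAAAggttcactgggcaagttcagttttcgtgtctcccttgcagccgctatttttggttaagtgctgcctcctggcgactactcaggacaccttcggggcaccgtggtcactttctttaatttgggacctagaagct
Slc7a8, chr14:54781887-54782136, minus strand: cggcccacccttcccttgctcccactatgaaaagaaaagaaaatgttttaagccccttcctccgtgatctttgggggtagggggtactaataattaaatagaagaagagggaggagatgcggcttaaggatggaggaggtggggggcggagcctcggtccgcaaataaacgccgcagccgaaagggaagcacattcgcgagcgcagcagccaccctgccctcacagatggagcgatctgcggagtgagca
Slc7a7 at its start, chr14:54417927-54417956, minus strand: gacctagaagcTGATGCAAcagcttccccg
Slc1a4 at its start, chr11:20332699-20332728, minus strand: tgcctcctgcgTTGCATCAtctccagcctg
Slc1a2, chr2:102706219-102706248, plus strand: gagaagagggacATCAAAGgccccaaatgg

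The match in Slc7a7 begins 1 base before the outermost of its 5 listed starts, with a second match 141 bases before that start. The first match also lies 243 bases before another start, and the windows of the remaining starts hold none. Which start of Slc7a7 these cells use was not tested. The match in Slc1a4 begins 4 bases before the start and reads TGATGCAA on the opposite strand. In Slc1a2 the match begins 207 bases before the start. Slc7a11, whose window holds TGATGNAA at 66 and 47 bases before the start, is below the dim line in these cells, so its response could not be read.

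Cationic amino acid transporters carry arginine, lysine and ornithine without a heavy chain. Slc7a2, the form known from inflamed and hormone-stimulated cells, was at 3.43 and 3.49 log2 in wild type, against 4.00 and 4.21 in knockout, without overlap. Slc7a2 rose by 0.65 (SE 0.117, n = 2 arrays per group, adjusted p = 0.0225 by limma). Its call was lost without wild type replicate 1 (adjusted p = 0.0671), Mmp14 knockout replicate 2 (0.102) or wild type replicate 2 (0.0594). Slc7a1, the common form of growing cells, was at 4.93 and 5.07 in wild type, against 5.15 and 5.47 in knockout. That difference of 0.31 was not called (adjusted p = 0.229).

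The Slc1 family holds glutamate carriers and the exchangers of small neutral amino acids. Slc1a4, which exchanges alanine, serine, cysteine and threonine, was at 6.98 and 7.14 log2 in wild type, against 6.37 and 6.40 in knockout. Slc1a4 fell by 0.68 (SE 0.111, n = 2 arrays per group, adjusted p = 0.0159 by limma). The call was lost without wild type replicate 2 (adjusted p = 0.0552), Mmp14 knockout replicate 1 (0.0781) or Mmp14 knockout replicate 2 (0.0565). Its close relative Slc1a5, which also takes glutamine, was at 6.57 and 6.53 in wild type, against 6.70 and 6.34 in knockout, with knockout arrays on either side of wild type. The difference was −0.03 with a 95% interval of −0.39 to 0.32. A dim second probe set of Slc1a5 read 2.15 and 2.10 in wild type, against 3.04 and 2.47 in knockout.

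Slc1a2, the main glutamate carrier of brain glia, was dim, at 3.56 and 3.12 log2 in wild type, against 2.55 and 2.66 in knockout. Slc1a2 fell by 0.73 (SE 0.163, n = 2 arrays per group, adjusted p = 0.0414 by limma). Because the knockout arrays are close to the dim line, the size of the fall is uncertain. Its call was lost without wild type replicate 1 (adjusted p = 0.0745), Mmp14 knockout replicate 1 (0.138) or 2 (0.0784), and without a filter on dim genes (0.0592). Over the 6 Schwann and neural markers measured, the summed linear intensity was 375 to 425 in wild type and 252 to 278 in knockout, and Ncam1 alone among the 4 tested was called, falling by 0.81. S100b, Mbp and Tubb3 had differences of 1.02, 0.45 and −0.28, the median of the 4 was 0.08, and Sox10 and Gfap were below the dim line. The part of such cells in this result was not tested.

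Slc1a6, a glutamate carrier known from the cerebellum, had a large difference that was not called. It was at 6.19 and 6.65 log2 in wild type, against 5.99 and 5.59 in knockout, −0.64 with an adjusted p = 0.104. The groups of Slc1a6 did not overlap, but replicates stood well apart in both. The difference was −0.41 without wild type replicate 2 (adjusted p = 0.279) and −0.44 without Mmp14 knockout replicate 2 (0.312). It was called in 2 of 13 alternatives, the stricter filter on dim genes (0.0345) and the trend and robust fit (0.0432), and 11 did not call it. Slc1a3 and Slc1a1, the other glutamate carriers tested, had differences of 0.25 and 0.20 and were not called.

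Sodium-coupled carriers of the Slc38 family bring in glutamine, alanine and other small neutral amino acids, and some act on the lysosome. Of 8 tested, 1 fell, 7 were not called, and the median difference was 0.18 log2, beside −0.0041 over all genes. The share called, 12.5%, is near the 11.3% of all genes. Slc38a1, a glutamine carrier of the plasma membrane, was at 7.27 and 6.996 in wild type, against 6.22 and 6.56 in knockout. Slc38a1 fell by 0.74 (SE 0.160, n = 2 arrays per group, adjusted p = 0.0379 by limma) without overlap. It lost its call without wild type replicate 1 (adjusted p = 0.106), Mmp14 knockout replicate 1 (0.143), or a filter on dim genes (0.054).

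Slc38a2, the carrier known to supply proline and glutamine to bone-forming cells and to be induced when amino acids are scarce, pointed the other way. It read 8.96 and 9.02 log2 in wild type, against 9.29 and 9.35 in knockout. The groups did not overlap, and the difference of 0.33 (SE 0.102, 95% interval 0.08 to 0.58) was not called (limma adjusted p = 0.0982, n = 2 per group). Slc38a1, Slc38a2 and Slc38a4 are near neighbours on chromosome 15, and their differences were −0.74, 0.33 and 0.07.

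Slc38a7, a lysosomal glutamine carrier, and Slc38a6 had differences of 0.42 and 0.36 and were not called (limma adjusted p = 0.0599 and 0.0966). Slc38a7 read 6.39 and 6.53 log2 in wild type, against 6.90 and 6.87 in knockout. Slc38a2, Slc38a6 and Slc38a7 passed the threshold under the stricter filter, which tests only genes averaging 4.76 log2 or more (adjusted p = 0.0402, 0.0377 and 0.0182). Slc38a9, the arginine sensor of the lysosome, had a difference of 0.28, and Slc38a10 one of −0.0031 with an interval of −0.25 to 0.24.

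The Slc6 family carries neurotransmitters, taurine, creatine and some amino acids. Slc6a6, the taurine transporter, was at 9.77 and 9.89 log2 in wild type, against 10.58 and 10.49 in knockout. Slc6a6 rose by 0.71 (SE 0.108, n = 2 arrays per group, adjusted p = 0.0132 by limma), or 1.63-fold, with no overlap. Its call was lost without Mmp14 knockout replicate 1 (adjusted p = 0.0703). The creatine transporter Slc6a8 was at 8.14 and 8.32 in wild type, against 8.30 and 8.19 in knockout, a difference of 0.02 with an interval of −0.27 to 0.30. Slc6a7 and Slc6a17, carriers of proline and other neutral amino acids in neurons, differed by −0.22 and −0.07 log2, neither of which was called.

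Proton-coupled Slc36 carriers and the Slc43 facilitators gave small differences. The 2 tested Slc36 genes, Slc36a1 of the lysosome and Slc36a4, had values of 0.02 and −0.03. The 3 Slc43 genes, which include 2 carriers of large neutral amino acids, ran from −0.09 to −0.02. None of these 5 was called, and their 95% intervals lay between −0.36 and 0.28. A second probe set of Slc36a4 gave 0.05, and one of Slc38a10 gave −0.18.

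The 28 transporters below the dim line were mostly forms known from brain, kidney or gut. They were Slc1a7, Slc36a2, Slc36a3, Slc38a3, Slc38a5, Slc38a11, Slc6a2 to Slc6a5, Slc6a11 to Slc6a16, Slc6a18, Slc6a19, Slc6a21, Slc7a3, Slc7a4, Slc7a9 to Slc7a15. Slc6a12, the betaine carrier, and Slc38a3 lay just under the line, with means of 2.29 and 2.28 log2, while Slc6a7 and Slc3a1 lay just above it at 2.41 and 2.42. Slc6a12 read 2.59 and 2.48 in wild type, against 2.05 and 2.02 in knockout. Signal this low says little about whether a gene changed, and no fold is given.

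Genes that make, break down or sense amino acids were read from lists of the same pathway, and each list's median lay between −0.36 and 0.13 log2. Among 14 tested genes of glutamine, glutamate and proline metabolism, 3 fell and 0 rose, which is 21.4% called beside 11.3% of all genes (5.12% lower). Aldh4a1, the mitochondrial enzyme that completes the breakdown of proline to glutamate, was at 6.39 and 6.24 log2 in wild type, against 4.54 and 4.50 in knockout. Aldh4a1 fell by 1.80 (SE 0.109, n = 2 arrays per group, adjusted p = 0.000995 by limma) and was called under all 13 alternatives run. Glul, which makes glutamine from glutamate, fell from 6.96 and 6.82 to 5.81 and 5.91, a change of −1.03 (adjusted p = 0.00438). Glul had 2 probe sets, and their mean changed less, by −0.54 (limma adjusted p = 0.0346). The dimmer set therefore changed by less than this mean. Got1, the cytosolic aspartate aminotransferase, fell by 0.84 (adjusted p = 0.00717).

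Among 16 tested genes of cystine use and glutathione synthesis, 2 rose and 0 fell, a share of 12.5% that is near the 11.3% of all genes called. Both called genes, Cdo1 and Csad, encode successive enzymes of the route from cysteine to taurine, the substrate of Slc6a6. Any link between their rise and that of Slc6a6 was not tested. Cdo1, cysteine dioxygenase, was at 5.84 and 5.89 log2 in wild type, against 6.64 and 6.37 in knockout, a rise of 0.65 (limma adjusted p = 0.0287, n = 2 per group). Csad, cysteine sulfinic acid decarboxylase, was at 6.26 and 6.55 in wild type, against 7.13 and 7.02 in knockout, a rise of 0.67 (adjusted p = 0.0311). The call of Cdo1 was lost without wild type replicate 1 (adjusted p = 0.0793), Mmp14 knockout replicate 1 (0.138) or wild type replicate 2 (0.0768). Csad lost its call without wild type replicate 1 (0.0743), Mmp14 knockout replicate 1 (0.129) or Mmp14 knockout replicate 2 (0.0674).

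**Figure D4:**
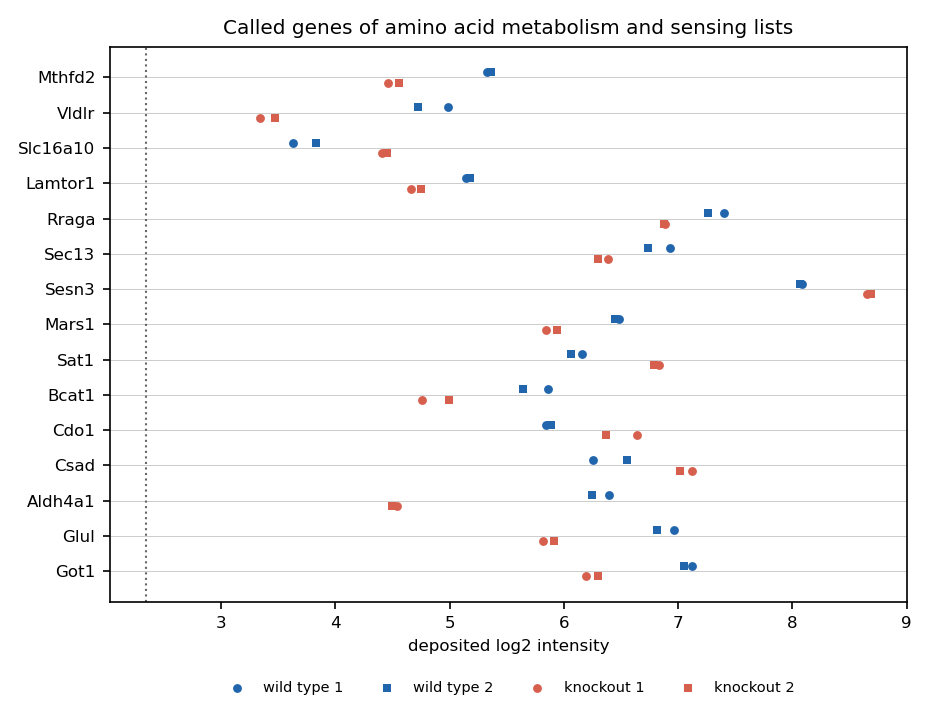
Deposited log2 intensity (horizontal axis) on each array of the 15 called genes from the lists of amino acid metabolism, sensing and other carriers, with wild type in blue, knockout in red, replicate 1 as circles and replicate 2 as squares. The dotted line marks 2.34 log2, the line for dim genes. The genes were chosen because they were called, so the gap between groups in each is no further result. Aldh4a1 stood at 6.39 and 6.24 in wild type to 4.54 and 4.50 in knockout.

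Of 24 tested genes of the ATF4 arm and its amino acid response targets, 2 fell, 0 rose and 22 were not called, with a median of −0.19. This share of 8.33% is below the 11.3% of all genes called. Vldlr, a lipoprotein receptor gene, fell by 1.44, and Mthfd2, a mitochondrial one-carbon enzyme, by 0.84 (limma adjusted p = 0.00245 and 0.00679). Of 20 tested genes of the aminoacyl-tRNA synthetases and their partners, Mars1 fell by 0.57 and 19 were not called (5% called). The differences of these 20 ran from −0.57 to 0.08, with a median of −0.17, beside −0.0041 over all genes. Among 31 tested genes of amino acid sensing by the kinase mTORC1, Sesn3 rose by 0.60, and Sec13 (−0.49), Lamtor1 (−0.46) and Rraga (−0.45) fell, a share of 12.9% that is near the share over all genes. Mars1, Sec13, Lamtor1 and Rraga each lost the call on leaving out any 1 array, with adjusted p between 0.0597 and 0.226. Sec13, Lamtor1 and Rraga also lost it without a filter on dim genes (0.0767, 0.0725 and 0.0797), and Rraga after quantile normalization (0.0503). Sesn3 lost its call without wild type replicate 2 (0.0567), Mmp14 knockout replicate 1 (0.0835) or 2 (0.0806).

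In the remaining lists 1 gene each was called, which is 7.14% to 14.3% of the genes tested in each, beside 11.3% of all genes. Of 7 tested genes of arginine and polyamine metabolism, Sat1, which acetylates polyamines for export or breakdown, rose by 0.70. It was the highest of the 7, whose median was −0.36 and lowest difference −0.47. Bcat1, the cytosolic branched-chain aminotransferase, fell by 0.88 of 9 tested genes of branched-chain, serine and tryptophan breakdown. Slc16a10, which carries aromatic amino acids, rose by 0.70 of 14 tested carriers of other families, from 3.63 and 3.83 log2 to 4.41 and 4.45. Without Mmp14 knockout replicate 1 the calls of Sat1 (limma adjusted p = 0.0633), Bcat1 (0.0573) and Slc16a10 (0.0632) were lost, and that of Slc16a10 also without Mmp14 knockout replicate 2 (0.0663).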

How the data were processed

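The authors deposited a table of log2 intensities covering 41345 probe sets of an Affymetrix array (per the series design), with values from 0.43 to 12.2, with array medians of 2.32 to 2.37. Per the labels' protocols, cDNA amplified from 10 ng RNA was labelled with biotin (3.75 µg per sample). Per the submitters' processing notes, oligo and limma were used, and the normalization is not given in the sources used here, nor is a genome build. The number of arrays limits the precision.

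Symbols came from GEO's platform annotation, and 23521 probe sets had exactly 1. All 59 transporter symbols were found in the RefSeq table of GRCm38.p6, used for names, gene order and promoters. Genes averaging 2.34 log2 or more, the median over all probe set means, entered a two-sided limma 3.58.1 fit under R 4.3.3 (eBayes after lmFit, 2 residual and 3.99 prior degrees of freedom), without a block. Benjamini-Hochberg adjustment ran over all 12708 genes tested, and a gene was called below 0.05. Differences are knockout minus wild type. The fit was also run on data simulated from its own noise model, so that run is no check of its assumptions on these arrays.

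The transporters and lists were chosen with earlier results of these data known. Named were Mmp14, each called transporter, transporters not called at 0.5 log2 or more, Slc3a2, Slc7a5, Slc7a7, Slc7a11, Slc1a5 and Slc38a2, and up to 4 called genes per list, with other genes named after their values were seen. Alternatives covered the dim-gene filter, normalization, centring, variance model, array weights, probe set choice, a replicate block, thresholds and leaving out each array. Deviations from the group mean correlated at −0.04 between arrays of the same number, so the numbers were not treated as pairs.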

Additional observations from a re-analysis of the deposited data

How the results depend on the processing

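The 3 higher and 5 lower transporter calls became 0 and 0 with every probe set in 1 limma fit (12 of the 31 transporters at an unadjusted p below 0.05) and 0 and 0 at an adjusted p below 0.01 (12 at an unadjusted p below 0.05). Under the stricter filter Slc7a2 and Slc1a2, with means of 3.78 and 2.97 log2, were not tested. There 2 of the 5 higher calls and 4 of the 5 lower calls were shared with the reported fit. The higher count was 5 under the stricter filter, 5 with trend and robust eBayes and 6 at an adjusted p below 0.1, and the lower count was 2 without a filter. With the replicate number as a block it was 2 lower, the calls of Slc7a5, Slc38a1 and Slc1a2 being lost (adjusted p = 0.086, 0.076 and 0.067), as were those of Mars1, Sec13, Lamtor1, Rraga, Csad, Cdo1, Cdh24, Efs and Eif2s3y. Leaving out single arrays gave 2 higher each time and 1 to 2 lower, with the remaining array of a group assumed to vary like the other group.

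Over all genes, 788 were higher and 651 lower. These became 129 and 89 with every probe set in 1 fit, 264 and 195 at an adjusted p below 0.01, and 1240 and 1125 at 0.1, with 1027 lower under trend and robust eBayes. Leaving out single arrays gave 394 to 672 higher and 293 to 459 lower.

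Among 36 named genes and their 461 alternative values, 3 changed sign, all of genes not called: Slc3a2 without wild type replicate 1 (0.022), and Slc1a5 as the mean of its probe sets (0.30) and without Mmp14 knockout replicate 2 (0.15). With single arrays left out, Slc3a2 ran from −0.085 to 0.022 and Slc1a5 from −0.21 to 0.15. The cause of these changes was not tested. Of the rest, 340 kept their side of the threshold, 111 lost the call and 7 gained one. Quantile normalization moved the median difference of all genes by −0.01 log2 and centring by −0.02. Signal near the dim line limits what can be read of 28 transporters.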
